A study of Mus musculus with 6 samples.

Results

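The genes examined were 9 transcription factors of innate lymphoid fate: Zbtb16, Nfil3, Tox, Tox2, Rora, Ahr, Tbx21, Eomes and Maf. They were taken by gene symbol, from a list drawn up with earlier results of these data known, and each of the 9 was found among the 22609 genes of the table and among the 16241 that the authors tested. RNA sequencing compared early T cell progenitors (ETPs) of the mouse fetal thymus, all labelled as strain C57BL/6. The control group held 3 libraries from wild-type mice, sorted as CD4-, CD8-, lineage-negative, CD44+, CD25- and c-Kit+ cells. The double knockout (dKO) group held 3 libraries from E2Afl/flHEBfl/flIL7RCre mice, in which Cre expressed from the IL7R gene deletes floxed E2A (gene Tcf3) and HEB (gene Tcf12). The dKO cells were sorted with the same markers and for YFP as well, so gate and genotype differed together and cannot be told apart. The embryonic age and the number of mice behind a library are not given in the labels, so a p-value here is set against a spread between libraries that could be technical only.

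Innate lymphoid cells (ILCs) and natural killer (NK) cells are lymphocytes without rearranged antigen receptors, and they arise from progenitors that overlap with those of T cells. The E proteins E2A and HEB bind E-box DNA through a basic helix-loop-helix domain and drive lymphoid and early T cell genes, and Id proteins such as ID2 hold them inactive. Zbtb16 (PLZF), Nfil3 and Tox act in precursors shared by several ILC types, and Tox2 acts in NK cell maturation. Tbx21 (T-bet) and Eomes direct ILC1 and NK cells, Rora directs ILC2, and Ahr and Maf act in ILC3 and in several effector T cells.

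The deposited table gives a mean normalised count for each group, the authors' p-value and an adjusted p-value. A normalised count is a read count divided by the size factor of its library. A gene is called higher or lower at an adjusted p under 0.05. Approximate depth, in M (mega) reads counted in genes, was 18.2 to 22.6 M in control libraries and 24.3 to 27.0 M in dKO libraries. It was estimated as the summed group mean times a size factor inferred from the group means, and is not given in the labels. Both deleted genes fell, Tcf3 by 24.6-fold and Tcf12 by 6.84-fold according to the authors' deposited table. Cd44 and Kit, which the gate selects, were found in control and dKO alike, where the authors' deposited table has means of 3220 and 2765 for Cd44 and 14094 and 19067 for Kit, the latter called higher. Il2ra, which encodes CD25, a surface protein that the gate excludes, had means of 8417 and 8536 according to the authors' deposited table and was not called. For abundances low enough, the whole reads of each library could be recovered from the group mean, and such libraries are named here by size factor, not by replicate number.

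Each of the 9 fate factors rose in the dKO progenitors, by 2.41-fold to 11.0-fold. Of all tested genes 29.0% were called, 15.1% as higher and 13.8% as lower. The share called higher was 21.2% where the mean reached 100. It was 19.7% where the mean reached 10 and the adjustment was redone, and 6.86% when a rise of at least 2-fold was also required, and all 9 factors passed both of these. The median log2 change of the 9 was 2.02, against -0.05 for the 16241 tested genes. At an adjusted p under 0.01, 8 of the 9 still passed, against 11.7% of tested genes called higher, and the member that did not pass was Eomes. All but Nfil3 and Tox, 7 members, rose more than 3-fold. With 3 control libraries, a control library holding every read of such a gene would still lie below the dKO group mean. These are sorted populations, and more cells expressing a factor and more RNA per cell cannot be told apart.

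**Figure D1:**
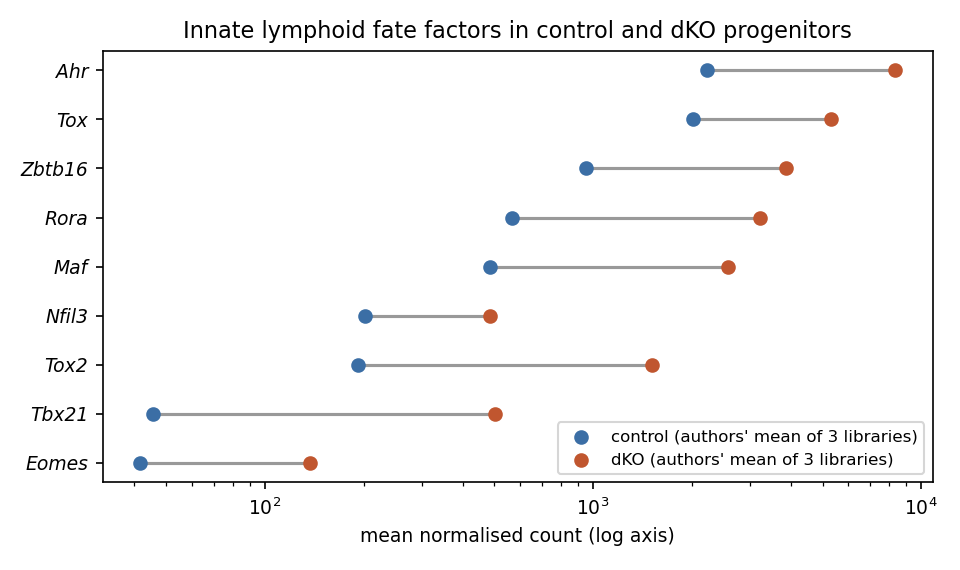
Mean normalised count of each fate factor (log axis) in the control group and in the dKO group, as deposited by the authors, with a line joining the 2 means of a gene. The dKO mean lies to the right of the control mean for each of the 9 genes, with the longest line for Tbx21 and the shortest for Nfil3.

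Of Zbtb16, Nfil3, Tox and Tox2, Zbtb16 and Tox2 changed most. Zbtb16 encodes PLZF, which marks the committed ILC precursor and also innate-like T cells. Its mean went from 950 to 3860.5 according to the authors' deposited table, 4.06-fold higher (authors' adjusted p = 7.98e-57), the rank of 80 among all tested genes ordered by p. Tox and Tox2 encode related HMG-box proteins. Tox, needed for ILC precursors and for CD4 T cell development, went from 2018 to 5290.5 according to the authors' deposited table, 2.62-fold higher (authors' adjusted p = 3.44e-33). Tox2, which acts in NK cell maturation, went from 192 to 1512.5 according to the authors' deposited table, 7.87-fold higher (authors' adjusted p = 2.96e-32). The control mean of Tox2 has 2 solutions in whole reads. In the first the control libraries of size factors 0.823, 0.952 and 1.02 held normalised counts of 4.86, 161 and 411, and in the second 147, 264 and 166. Both leave every control library below the dKO mean, but they differ in whether the control libraries were alike.

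Nfil3, a basic leucine zipper factor that acts early in the specification of ILC and NK progenitors, had the smallest fold of the 9. Its mean went from 201 to 485 according to the authors' deposited table, 2.41-fold higher (authors' adjusted p = 2.58e-06). The dKO libraries of size factors 1.04, 1.08 and 1.16 held normalised counts of 385, 497 and 574, a mean of 485 ± 94.7 (SD, n = 3). The control mean has 2 solutions in whole reads. In the first the control libraries, in the order of size factors 0.823, 0.952 and 1.02, held 72.9, 64.1 and 467, and in the second 215, 167 and 222. The groups overlapped in the first solution and did not in the second, so the libraries behind the control mean of Nfil3 are not settled by the table. Under the first solution the rise of Nfil3 was 7.09-fold without the control library of size factor 1.02, and 1.83-fold and 1.8-fold without that of 0.823 or 0.952.

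Tbx21 and Eomes, which direct ILC1 and NK cells, had the lowest control means of the 9, and their reads per library could be recovered in both groups. Tbx21 encodes T-bet, the factor of type 1 lymphocytes and of interferon gamma expression. Its control libraries, in the order of size factors 0.823, 0.952 and 1.02, held normalised counts of 42.5, 36.8 and 57.6, from 35, 35 and 59 reads. Its dKO libraries, in the order of size factors 1.04, 1.08 and 1.16, held 758, 538 and 205, from 787, 579 and 237 reads. The groups did not overlap, and the dKO libraries differed among themselves by 3.70-fold. The group mean rose from 45.6 to 501 according to the authors' deposited table, 11.0-fold and the largest change of the 9 (authors' adjusted p = 0.00221). Of tested genes 0.954% had a fold at least as high, while by p Tbx21 ranked 2845.

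Eomes encodes the T-box factor of NK cell maturation and is closely related to Tbx21. Its control libraries, in the order of size factors 0.823, 0.952 and 1.02, held normalised counts of 15.8, 56.7 and 52.7. The dKO libraries of Eomes, in the order of size factors 1.04, 1.08 and 1.16, held 115, 208 and 88.2. The groups did not overlap, and the control library of size factor 0.823 was the lowest of the 6. The share of all resolved genes whose groups also did not overlap was not examined. Non-overlap therefore sets neither Tbx21 nor Eomes apart from other genes. The group mean rose from 41.7 to 137 according to the authors' deposited table, 3.28-fold, and passed the threshold by little (authors' adjusted p = 0.0421). For Tbx21 and for Eomes an exact 2-sided permutation test over the libraries gave p = 0.1, the smallest that 3 against 3 allows.

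**Figure D2:**
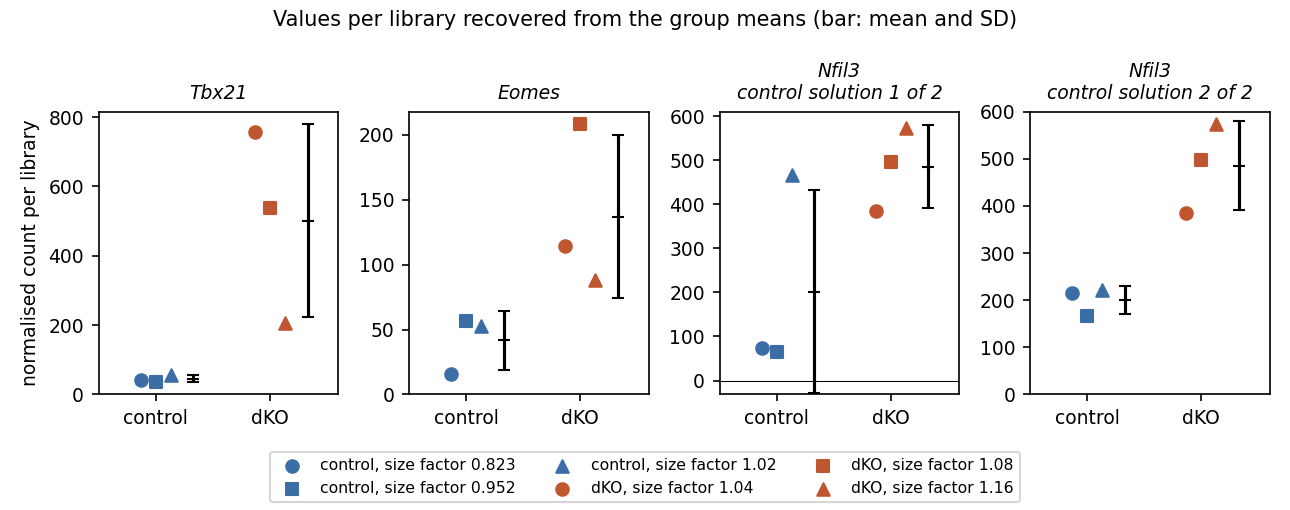
Normalised count per library of Tbx21, Eomes and Nfil3, recovered from the group means, with a marker for each library and a bar for the group mean and SD. Nfil3 has 2 panels because its control mean has 2 solutions in whole reads. The dKO values of Tbx21 spread from 205 to 758 above control values of 36.8 to 57.6, those of Eomes lie above the control values, and those of Nfil3 overlap with control in the first solution.

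The dKO library of size factor 1.16 was the lowest of its group for both T-box genes. Of 7 genes of the NK and ILC1 list that were called higher and whose dKO mean of 50 to 500 could be resolved into reads, 5 were lowest in the same library. These 7 were Ncr1, Klrb1c, Klrg1, Ifng, Prf1, Cxcr3 and Itga1. Among all 497 such genes called higher the share lowest in that library was 41.9%. The same library was lowest for 2 of 2 such ILC precursor genes, 2 of 2 ILC3 genes and 1 of 4 ILC2 genes, with Cxcr5, Ncr1 and Klrg1 each standing in more than 1 list. Ncr1, the activating receptor NKp46, held normalised counts of 244, 297 and 154 in the dKO libraries of size factors 1.04, 1.08 and 1.16. The order was not shared by every gene that rose. Egr2, an immediate early factor known to induce Zbtb16 in natural killer T cells, held 173, 366 and 517 in the same order of libraries, highest where Tbx21 was lowest.

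Rora, Ahr and Maf were of middle to high abundance. Rora encodes the nuclear receptor RORα, required for ILC2. Its mean went from 567 to 3234 according to the authors' deposited table, 5.71-fold higher (authors' adjusted p = 7.46e-37). Maf encodes c-MAF, a basic leucine zipper factor of ILC3, of IL-17-producing gamma delta T cells and of IL-4 and IL-10 expression. It went from 483 to 2571 according to the authors' deposited table, 5.32-fold higher, with the smallest p of the 9 (authors' adjusted p = 9.47e-63). Ahr encodes the aryl hydrocarbon receptor, a ligand-activated factor that maintains ILC3. It was the most abundant member in the dKO group and went from 2216 to 8319 according to the authors' deposited table, 3.75-fold higher (authors' adjusted p = 0.000266). Zbtb16, with a like fold and lower means, ranked 80 by p, while Ahr ranked 2239. The libraries behind the Ahr means could not be resolved, so the spread that goes with this larger p is not known by library.

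**Figure D3:**
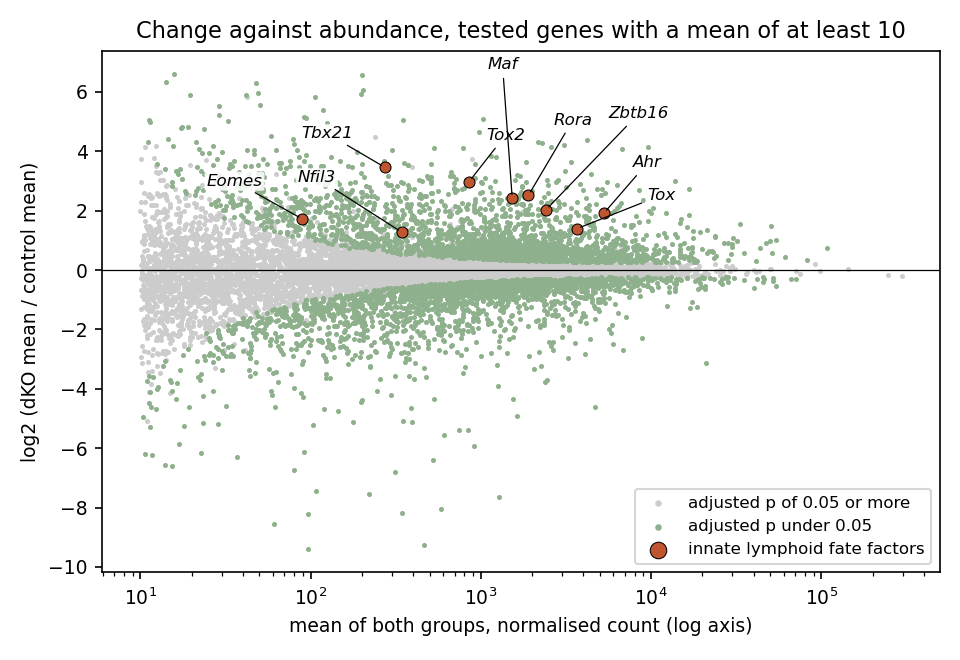
The log2 ratio of the dKO mean to the control mean against the mean of both groups (log axis), for tested genes with a mean of at least 10 and above 0 in both groups. The 9 fate factors lie between 1.27 and 3.46 on the log2 scale, from Eomes at the low end of abundance to Ahr at the high end.

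Levels of the factors were compared per kilobase of exon, using GENCODE M21 exon lengths, since longer transcripts collect more reads. In control progenitors Tox was highest, at a mean normalised count of 509 per kilobase, followed by Ahr at 399, Zbtb16 at 180 and Nfil3 at 99.3. Tox2 at 60.6, Maf at 58.7 and Rora at 50.4 per kilobase lay close together. Tbx21 at 18.3 and Eomes at 11.3 were lowest. In dKO progenitors the order per kilobase was Ahr at 1500, Tox at 1336, Zbtb16 at 731, Tox2 at 477, Maf at 312, Rora at 288, Nfil3 at 239, Tbx21 at 201 and Eomes at 37.1. Nfil3 thus moved from the fourth place to the seventh and Tox2 from the fifth to the fourth. The spread is known by library for the T-box genes, whose levels per kilobase overlapped in control libraries (14.8 to 23.1 for Tbx21, 4.28 to 15.4 for Eomes) and did not overlap in dKO libraries (82.4 to 305 for Tbx21, 23.9 to 56.4 for Eomes). Nfil3 held 190 to 283 per kilobase in dKO libraries, within the range of Tbx21. For the other neighbours in the order the spread was not known. The sources used here do not name the annotation that the authors counted on. In GENCODE M21, Tox, Rora, Ahr, Eomes and Maf each have an antisense gene over an exon, and without strand information reads from the 2 strands cannot be told apart there.

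Because E proteins bind E-boxes, written CANNTG with CAGCTG and CAGGTG as favoured forms, the promoters of the factors were searched for these letters on both strands. RefSeq windows from 250 bases before to 50 after a transcription start (build GRCm38.p6) were found for 5 of the 9: Nfil3, Tox2, Rora, Tbx21 and Eomes. The 5 genes have 9 windows, 5 of them of Tox2. Some windows of Tox2 overlap, so the same match can be counted in more than 1 window. CANNTG occurred in 6 of the 9 windows, of 3 genes (Nfil3, Tox2 and Tbx21), against 72.3% of all 32851 windows. CAGCTG occurred in 2 of the 9 windows (Nfil3 and Tbx21), against 16.3% of all windows. CAGGTG or its reverse complement CACCTG occurred in 2 of the 9 (Tox2 and Tbx21), against 20.2%. In the 150 bases before the start, CANNTG was left in 1 of the 9 windows, of Tox2, against 47.7% of all windows. The stretches before the start that overlap no annotated exon are shown for Nfil3 and Tbx21, which hold favoured forms, and for Eomes, which holds none, with E-box letters in capitals. They lie at chr13:52981074-52981289 on the minus strand for Nfil3, at chr11:97115332-97115581 on the minus strand for Tbx21 and at chr9:118477939-118478188 on the plus strand for Eomes. The E-box letters begin 223 bases before the start in Nfil3 and 196 in Tbx21.
Nfil3: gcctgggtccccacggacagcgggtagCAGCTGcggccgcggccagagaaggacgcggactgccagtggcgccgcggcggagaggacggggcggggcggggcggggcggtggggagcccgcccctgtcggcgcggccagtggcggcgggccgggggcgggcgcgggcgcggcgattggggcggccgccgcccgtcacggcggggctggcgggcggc
Tbx21: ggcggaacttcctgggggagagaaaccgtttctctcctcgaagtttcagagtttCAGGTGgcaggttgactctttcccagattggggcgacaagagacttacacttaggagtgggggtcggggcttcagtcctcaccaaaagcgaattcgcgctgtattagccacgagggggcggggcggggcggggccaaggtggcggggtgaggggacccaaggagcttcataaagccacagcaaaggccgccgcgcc
Eomes: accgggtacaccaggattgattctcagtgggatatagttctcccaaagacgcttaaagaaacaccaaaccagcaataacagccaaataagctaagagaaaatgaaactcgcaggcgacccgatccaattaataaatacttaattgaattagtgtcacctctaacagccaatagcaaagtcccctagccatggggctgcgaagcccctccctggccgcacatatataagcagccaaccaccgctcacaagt
These letters show neither binding nor its absence, and enhancers were not examined.

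Close relatives of the 9 did not move as a body. Of 24 tested paralogues, 4 rose and 5 fell, 15 stayed short of the threshold, and the median log2 change was -0.23. The shares higher and lower, 16.7% and 20.8%, lay near the 15.1% and 13.8% of all tested genes. The other TOX genes did not pass: Tox4 had means of 3223 and 3114 and Tox3 17.4 and 7.56 according to the authors' deposited table. The small MAF gene Mafk fell 1.29-fold according to the authors' deposited table. Dbp and Tef, leucine zipper factors that recognise the same DNA element as NFIL3, fell 2.46-fold and 1.81-fold according to the authors' deposited table, while Hlf, with means of 738 and 1081, did not pass. Zbtb7b, the ThPOK gene of CD4 T cells, rose 2.62-fold from 108 to 284 according to the authors' deposited table. Of the other T-box genes listed, Tbx3, Tbx4, Tbx5, Tbx18 and Tbx20 were at 0 in both groups.

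Other transcription factors of ILC development moved in both directions. Of 24 tested, 9 rose and 6 fell, 9 stayed short of the threshold, and the median log2 change was 0.41. Id2, which restrains E proteins and is required for ILCs, rose 3.55-fold, and Gata3, needed by ILC precursors, ILC2 and T cells, rose 3.26-fold according to the authors' deposited table. The Ikaros family genes Ikzf3 and Ikzf2 rose 4.83-fold and 2.50-fold according to the authors' deposited table. Zeb2, a factor of late NK cell maturation, fell 5.26-fold from 1025 to 195 according to the authors' deposited table. Bcl11b, Stat3 and Nfkb1 did not pass, with means of 4649 and 7548, 8757 and 8715, and 4295 and 4555 according to the authors' deposited table.

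Signals upstream of the factors included both rising and falling genes. Of 21 tested, 13 rose and 5 fell, 3 stayed short of the threshold, and the median log2 change was 0.62. The shares higher and lower were 61.9% and 23.8%, against 15.1% and 13.8% of all tested genes. Il2rb, the receptor chain shared by IL-2 and IL-15 that maintains NK cells, rose 12.3-fold from 511 to 6291 according to the authors' deposited table, whereas Il15ra, which presents IL-15, fell 2.64-fold. Il2rg, the common gamma chain, and Tgfbr2, a TGF-beta receptor chain, rose 2.75-fold and 2.53-fold according to the authors' deposited table, and Notch1 fell 5.56-fold. Egr1 and Egr2 rose 7.68-fold and 15.6-fold according to the authors' deposited table, and leaving out the control library of size factor 0.823 put the rise of Egr2 at 25.5-fold. Tgfb1, Nfatc1 and Ppp3ca did not pass, with means of 3839 and 4148, 3581 and 5040, and 598 and 1351 according to the authors' deposited table.

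The gene sets associated with each fate were read beside its factors. Among all tested genes 15.1% were called higher and 13.8% lower. The matching shares were 78.6% and 7.14% for ILC precursor genes and 68.2% and 18.2% for NK and ILC1 genes. They were 57.1% and 4.76% for ILC2 genes and 35.7% and 42.9% for the ILC3 list. Of 14 surface and signalling genes of ILC precursors, 11 rose and 1 fell, 2 stayed short of the threshold, and the median log2 change was 1.71. Pdcd1, which encodes the receptor PD-1 and marks ILC precursors, rose from 568 to 5682, by 3.32 on the log2 scale, and the IL-18 receptor gene Il18r1 rose 7.80-fold according to the authors' deposited table. Flt3, a growth factor receptor of early progenitors, was the member that fell, 3.31-fold from 1080 to 327 according to the authors' deposited table.

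Of 22 NK and ILC1 genes, among them known targets of T-bet and Eomes, 15 rose and 4 fell, 3 stayed short of the threshold, and the median log2 change was 2.08. Cd226, an activating adhesion receptor, rose 8.48-fold, and Ncr1 rose 42.3-fold from 5.47 to 231.5 according to the authors' deposited table. Leaving out the control library of size factor 0.952 put the rise of Ncr1 at 95.3-fold. Ifng, the interferon gamma gene and a T-bet target, was at 1.40 in control and 82.3 in dKO according to the authors' deposited table, and its 4 control reads lay in the library of size factor 0.952, without which the control mean was 0. The 4 that fell were Gzma, Fasl, Il12rb2 and Il15ra, with Fasl, a death ligand, going from 986 to 152 and Il12rb2, an IL-12 receptor chain, from 1948 to 745 according to the authors' deposited table. S1pr5, a receptor for NK cell exit from tissues and a T-bet target, had 3 reads in the dKO group and was listed at 0 in control.

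Of 21 ILC2 genes, 12 rose and 1 fell, 8 stayed short of the threshold, and the median log2 change was 1.96. Lmo4 rose 6.49-fold from 2280 to 14788 and Il4, a type 2 cytokine gene, 7.30-fold from 71.1 to 519 according to the authors' deposited table. The IL-33 receptor gene Il1rl1 did not pass, with means of 866 and 1217 according to the authors' deposited table. Of 14 genes listed for ILC3 and lymphoid tissue inducer cells, 5 rose and 6 fell, 3 stayed short of the threshold, and the median log2 change was 0.69. The 6 include Ltbr, the lymphotoxin receptor gene, and Cd93, neither of which is specific to these cells. Lta and Ltb, the lymphotoxin genes, rose 19.2-fold and 4.07-fold according to the authors' deposited table, and the chemokine receptor Ccr6 fell 12.3-fold from 40.2 to 3.28. The ILC3 cytokine gene Il22 had means of 2.41 and 10.1 and its inducer's receptor Il23r 3.77 and 6.20 according to the authors' deposited table, and neither passed. Il17a and Il17f were at 0 in both groups, and 3 reads over a group would give means of 1.21 for control and 0.963 for dKO.

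**Figure D4:**
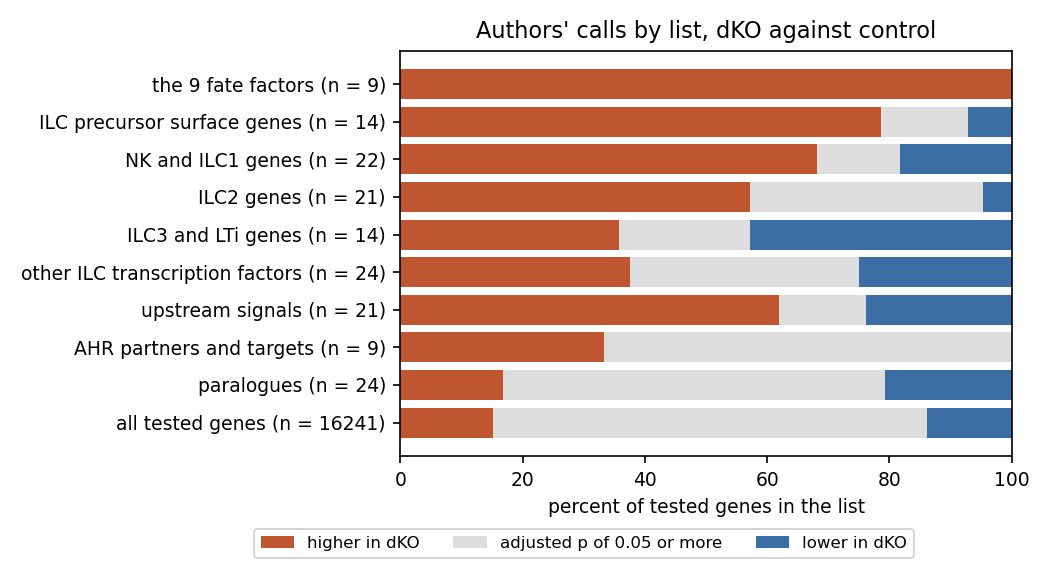
Percent of tested genes in each list that the authors called higher in dKO, lower in dKO or neither, with the number tested in parentheses. The bar of the 9 fate factors is wholly in the higher class, against 15.1% of all tested genes, and the bars of the other fate lists, the transcription factors and the paralogues hold falling genes as well, from 4.76% of the ILC2 genes to 42.9% of the ILC3 genes.

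Genes around the aryl hydrocarbon receptor were examined because Ahr itself was abundant. Of 9 tested genes listed as partners and targets, 3 rose and 0 fell, 6 stayed short of the threshold, and the median log2 change was 0.49. The share higher was 33.3%, against 15.1% of all tested genes. The 9 include Nrf1, nuclear respiratory factor 1, which is neither a partner nor a target and was not called. Arnt, its dimerisation partner, rose 1.47-fold from 1161 to 1702 according to the authors' deposited table. Ahrr, the receptor's feedback repressor and a direct target, rose from 1.30 to 27.7 according to the authors' deposited table (authors' adjusted p = 0.00697). Its 4 control reads came from the size factor 1.02 library alone, and its dKO libraries of size factors 1.04, 1.08 and 1.16 held normalised counts of 48.2, 15.8 and 19.0. Leaving out the dKO library of size factor 1.04 put the rise of Ahrr at 13.4-fold. The classic targets Cyp1a1, Cyp1a2 and Cyp1b1 were at 0 in both groups, as was Il10, and Tiparp, another target, did not pass, with means of 397 and 444 according to the authors' deposited table.

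For each member the gene of the lists nearest to it in log2 control mean and log2 dKO mean was taken from a pool of 133 genes, over these 2 group means. The nearest to Eomes was Id3, at a distance of 0.28, and the nearest to Zbtb16 was Ikzf3, at 0.30. Ikzf2 was nearest to Tox at 0.37, Egr1 to Tox2 at 0.40, Tgfbr2 to Ahr at 0.41 and Batf to Nfil3 at 0.59. Il18r1 was the nearest gene to both Rora and Maf, at 0.44 and 0.40, and Il4 the nearest to Tbx21, at 0.64. In control libraries of size factors 0.823, 0.952 and 1.02, Id3 held normalised counts of 23.1, 66.2 and 49.8, lowest in the same library as Eomes. Il4 held 76.5, 85.05 and 51.7, lowest in the library of 1.02, whereas Tbx21 was lowest in that of 0.952. The share of all genes lowest in a given control library was not examined.

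Markers of other cell types that the gate could hold were read over whole lists. Later thymocyte markers fell: of 13, 9 fell, 0 rose and 4 did not pass, and their summed mean went from 27800 to 12797. Of 8 tested myeloid and dendritic markers, 5 fell and 0 rose, and their summed mean went from 9042 to 2206, and Cd14, Siglech, S100a8 and S100a9 were at 0 in both groups. Of 7 tested B cell markers, 2 fell and 0 rose, and Pax5 and Ms4a1 were at 0 in both groups. Of 8 tested erythroid and megakaryocyte markers 2 fell and 0 rose, and their summed mean went from 2975 to 1080. The globin gene Beta-s fell 83.6-fold from 1032 to 12.3 according to the authors' deposited table, and Hba-a1, Hba-a2, Hbb-b1 and Hbb-b2 were listed at 0 in both groups. Beside the control mean of Beta-s, these zeros cannot be read as absence of globin RNA, and how they arose was not tested. Of 6 tested stromal markers 1 fell and 0 rose, with Pdgfra and Cdh5 at 0. Of 8 mast cell and basophil markers, 5 rose and 1 fell, and their summed mean went from 7506 to 5714. The 5 that rose were Tpsb2 (11.35-fold), Ms4a2 (3.54-fold), Mcpt8 (3.12-fold), Hdc (1.99-fold) and Gata2 (1.98-fold) according to the authors' deposited table. Cpa3, a mast cell protease gene with means of 5823.5 and 2147.5, fell 2.71-fold according to the authors' deposited table. The ETP markers were mixed, with 5 of 17 higher and 9 lower. Of the NK, ILC2 and ILC precursor lists described above, 15 of 22, 12 of 21 and 11 of 14 genes rose. The part that cell composition had in the rises of the factors was not tested.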

How the data were processed

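RNA from sorted cells was amplified with a low-input SMARTer kit and sequenced on an Illumina HiSeq 2500, per the labels' protocols. The submitters' processing notes name bcl2fastq 1.8.4, TopHat2 2.0.14, DESeq version 2 and build mm9; no counter or annotation is named in the sources used here. Per the file headers, the deposited signal values are the authors' mean normalised counts of each group, the fold column is the authors' ratio of the means, and the p-value columns are the authors' own. Redoing the Benjamini-Hochberg adjustment gave the deposited adjusted p-values within 4.08e-07.

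The 9 genes and the lists were chosen with earlier results of these data known. The table holds group means, so the planned count test was not run and the authors' adjusted p under 0.05 was used. After the data were examined, group means were resolved into whole reads per library (Python 3.11.15, NumPy 2.4.6) as sums of reads times a weight per library. Every mean up to 100 had 1 solution. Of control means from 100 to 200, 55.6% had 1 solution, and of dKO means from 350 to 500, 48.9%. On simulated means the unique solutions were right in 100% for control and dKO alike. Those means were built with the same weights that solved them, so the weights themselves were not tested. The dKO mean of Tbx21, 501, lay above the ranges simulated. Intervals and floors would cover counting error only. The floor was 3 reads over a group. Genes were named by a fixed rule: the members, the E and Id genes, the nearest genes, and per list up to 4 called genes with the smallest p and the 3 most abundant not called. Mafk, Dbp, Tox3, Egr2, Flt3, Kit, Il12rb2, Il15ra, Ccr6, Ltbr, Ms4a2, Hdc, the 7 NK genes with resolved reads and genes at 0 were named after their values were seen. For brevity not every gene the rule takes is printed, and some genes counted in the lists are not reported here by name. Alternatives were another threshold, a filter, a fold minimum, 2 scalings and leaving out a library.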

Additional observations from a re-analysis of the deposited data

How the results depend on the processing

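With an adjusted p under 0.01, 8 of the 9 factors stayed called higher, and with the adjustment redone over genes with a mean of at least 10, or with a minimum of 2-fold, 9 did; none was called lower in any of these. The median log2 change of 2.02 was 1.94 with equal group totals, 2.02 when centred on genes with a mean of at least 100, and 2.22 over the members with such a mean. None of 111 alternatives for the log2 change of a member turned its direction, and the lowest value was 0.85, for Nfil3. Most of them could not have turned it. The 2 scalings shifted log2 changes by -0.08 and -0.01. Leaving out 1 of 3 control libraries cannot raise a control mean by as much as the smallest rise, 2.41-fold. Only leaving out a dKO library could have turned a direction, which was possible for Tbx21, Eomes and Nfil3. Many alternatives were read solutions of the same mean, of which at most 1 is right. Leaving out 1 library at a time gave log2 changes of 3.03 to 3.83 for Tbx21 and 1.28 to 2.0 for Eomes. Leaving out a dKO library gave 1.13 to 1.41 for Nfil3. Where a control mean has several solutions in whole reads, each control library was left out under each solution, which was chosen after the data were examined. This gave 0.85 to 2.82 for Nfil3, 2.40 to 4.19 for Tox2, 1.93 to 3.88 for Maf, 1.93 to 5.66 for Rora and 1.47 to 4.14 for Zbtb16. No library could be left out for Tox and Ahr, nor a dKO library for Tox2, Maf, Rora and Zbtb16, since their reads were not resolved. In the 150 bases before the start, CANNTG was left in 1 gene instead of 3; the window is shorter by construction. The 4707 calls over all genes were 3548 at the stricter threshold and 4873 with the filter, both added after the data were examined. No paired analysis was possible because the table gives group means, and resolved libraries carry no replicate number. An edgeR or DESeq2 test was not run for the same reason. Tbx21 and Eomes rest on 35 to 787 and 13 to 224 reads a library.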
